A study of Mus musculus with 37 samples.

Results

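The estradiol response of mammary mature luminal cells carrying the Y541S form of the estrogen receptor gene Esr1 was measured by RNA sequencing in 6 libraries out of the 37 in the series. The libraries were chosen by their titles. They comprised 3 from Y541S mice with estradiol (E2) pellets, numbered 1, 2 and 3, and 3 from Y541S mice with placebo pellets, numbered 2, 3 and 5. All mice, in every group, were reared to 8 weeks, had their ovaries removed and carried a pellet for 8 days before the mammary glands were taken and mature luminal cells were sorted by FACS. E2 and placebo libraries of D542G mice (3 and 3) and of wild-type (WT) mice (3 and 3) were used only to ask where the Y541S response differed. The sources used here give neither the pellet dose nor the zygosity, nor which cells carry the mutant allele. The counts are per gene and do not show the allele. The series calls its samples biological replicates, but no label says whether a library is 1 animal or several pooled; the p-values therefore reflect variation among these particular libraries.

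Esr1 encodes estrogen receptor alpha, a nuclear receptor that binds estradiol, sits on estrogen response elements in DNA and recruits coactivators. In the mammary gland it is found in the hormone-sensing luminal cells, which answer estradiol by making progesterone receptor and paracrine signals that drive neighbouring cells. Y541S and D542G lie in the ligand-binding domain and correspond to mutations that keep the receptor active without hormone in endocrine-resistant breast cancer. The comparison therefore asks what estradiol still changes in cells whose receptor may already be active.

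The Y541S E2 libraries held 45.94, 41.02 and 44.96 M counts, and the Y541S placebo libraries 2, 3 and 5 held 43.34, 39.76 and 25.69 M, the last being the lowest total of the series (highest 52.24 M). Placebo 5 also has an identifier from a later number series, shared only with WT libraries of the progesterone group. It lay nearer to the E2 libraries than to its own group. Its root-mean-square difference in log2 CPM (the count scaled to a common library total) was 1.046, 0.996 and 1.108 from E2 libraries 1, 2 and 3, and 1.322 and 1.293 from placebo 2 and 3. Among themselves the E2 libraries differed by 0.85 to 0.932, and placebo 2 and 3 by 1.017. Counts of changed genes are therefore given with all 6 libraries and without placebo 5, single genes wherever the 2 versions differ in the call, and the cause of its place was not tested. The luminal keratins Krt8 and Krt19 were high in all 6 libraries, which does not tell mature luminal cells from other luminal cells. Krt8 had 1398, 1597 and 1943 CPM in E2 libraries and 1717, 1485 and 2153 CPM in placebo libraries, and Krt19 had 9568 to 13761 CPM throughout. Leukocyte markers were low. The 17 tested summed to 41.1, 61.7 and 70.9 CPM in E2 libraries against 24.6, 30.6 and 76.6 CPM in placebo libraries. Itgam and Ms4a1 of the same list were not tested. They had 0 counts in all 6 libraries, which was not read as absence. The 17 basal and myoepithelial markers summed to 871, 358 and 595 CPM in E2 libraries against 252, 676 and 795 CPM in placebo libraries. For 13 endothelial markers the sums were 144, 251 and 117 CPM against 92.7, 193 and 326 CPM. The groups overlapped in both lists. The 15 fibroblast markers summed to 259, 204 and 361 CPM against 4102, 4138 and 521 CPM. That gap came from Dcn, which encodes the matrix proteoglycan decorin and had 189, 101 and 240 CPM in E2 libraries and 3985, 4054 and 205 CPM in placebo libraries. Col1a1, a fibrillar collagen gene of fibroblasts, was instead highest in placebo 5, with 1.03, 2.18 and 4.16 CPM in E2 libraries and 3.06, 6.60 and 54.3 CPM in placebo libraries. In sorted bulk cells, fewer cells of a type and less RNA per cell cannot be told apart.

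With all 6 libraries, 344 genes were higher and 513 lower in E2 than in placebo libraries of Y541S mice, which is 1.87% and 2.78% of the 18426 genes tested (edgeR quasi-likelihood test, adjusted p under 0.05). Of these 857 genes, 496 changed at least 2-fold, and 3178 genes had an unadjusted p under 0.05. A fit of only the 6 libraries, with no other group to share the estimate of spread, called 0 genes, with 2595 at an unadjusted p under 0.05. In that fit Cmpk2, Rsad2 and Oasl2 had adjusted p = 0.098, Cited1 and Irf7 0.114 and Prlr 0.161, so every call with all 6 libraries rests on the spread shared over the series. Without placebo 5, the fit of only the groups compared called 2629 genes. Calls described as held without any single library are those of the fit over the whole series. Without placebo 5, 768 genes were higher and 1018 lower, or 4.03% and 5.34% of 19071, and 1087 of them changed at least 2-fold. The 279 genes higher in both versions were 81.1% of the higher calls with all libraries and 36.3% of those without placebo 5. The 481 genes lower in both were 93.8% and 47.2%. No gene was called in opposite directions. The total also moved with other libraries, from 857 to 299 without E2 1, 357 without E2 3, 377 without placebo 2 and 300 without placebo 3. Without placebo 5 it moved from 1786 to 829 when placebo 2 was also left out, and to 731 when placebo 3 was.

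**Figure D1:**
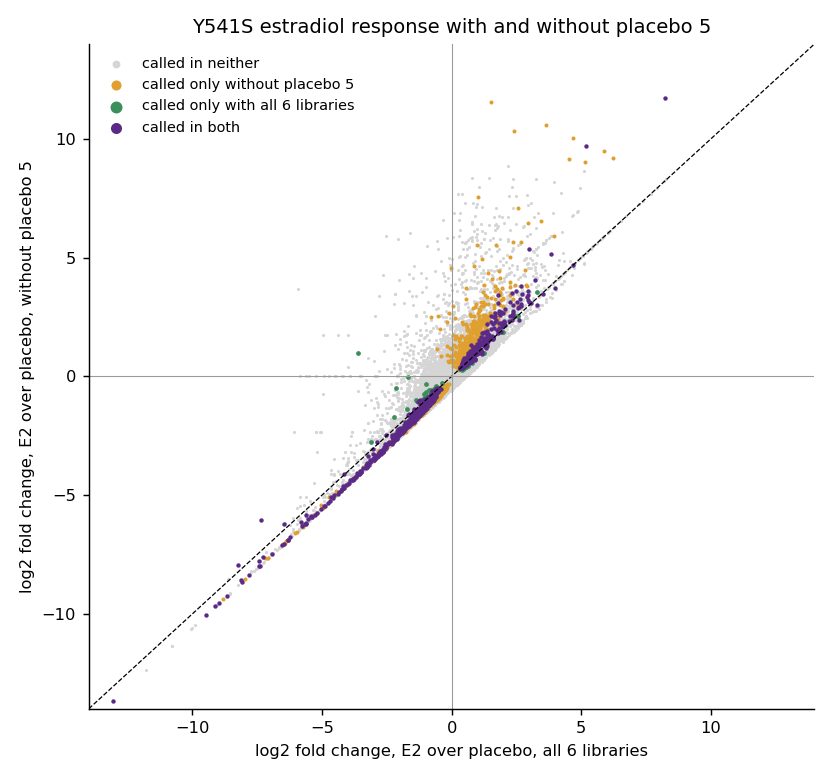
Log2 fold change of each gene, E2 over placebo in Y541S cells, with all 6 libraries (x axis) and without placebo 5 (y axis), where each point is a gene and the colour says in which version it was called. Many genes that rose lie above the dashed line of equal values, with 768 called higher without placebo 5 against 344 with it. Genes that fell (left of 0) lie nearer the line, but their calls also went up, to 1018 without placebo 5 from 513 with it. Leaving out placebo 5 thus changed the calls in both directions.

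The clearest group response was that of type I interferon-stimulated genes, which encode antiviral proteins and sensors. Of 30 tested, 20 rose and 0 fell with all libraries, with a median log2 fold change of 2.01, against 1.87% of all genes higher and a median of -0.01. Without placebo 5, 18 rose and 0 fell, with a median of 2.19, against 4.03% and 0.038 over all genes. The counts of the lists that follow are to be read against the same shares of all genes, 1.87% higher and 2.78% lower with all libraries, and 4.03% higher and 5.34% lower without placebo 5. The number that rose was 13 to 21 when any single library was left out, and it was lowest without placebo 3. Without placebo 5 it was 12 when placebo 2 was also left out and 5 when placebo 3 was.

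Cmpk2, a mitochondrial nucleotide kinase gene, lies on chromosome 12 (chr12:26469204-26479837, GRCm38) next to Rsad2 (chr12:26442746-26456452), which encodes the antiviral enzyme viperin. Cmpk2 had 417, 225 and 303 CPM in E2 libraries against 48.2, 35 and 72.1 CPM in placebo libraries. Rsad2 had 565, 416 and 493 CPM in E2 libraries against 75.3, 58.9 and 118 CPM in placebo libraries. All 3 E2 libraries were above all 3 placebo libraries for both genes, placebo 5 being the highest of the placebo libraries. The log2 fold change was 2.61 ± 0.29 (SE) for Cmpk2 (adjusted p = 2.22e-05) and 2.55 ± 0.43 for Rsad2 (adjusted p = 0.000787). Leaving out placebo 5 gave 2.92 ± 0.33 for Cmpk2 (adjusted p = 9.98e-07) and 2.87 ± 0.50 for Rsad2 (adjusted p = 0.000342).

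Oasl2, an oligoadenylate synthetase-like protein gene, had 492, 276 and 415 CPM in E2 libraries against 83.1, 72.3 and 99.1 CPM in placebo libraries (log2 fold change 2.22 ± 0.29, adjusted p = 8.32e-05). Irf7, the transcription factor that amplifies interferon production, had 602, 320 and 529 CPM against 91.2, 61.1 and 132 CPM (2.35 ± 0.42, adjusted p = 0.00139). In both genes E2 2 was the lowest of the E2 libraries and still above every placebo library. Isg15, a ubiquitin-like modifier gene, had 189, 93.2 and 194 CPM in E2 libraries and 33.7, 21.4 and 45.1 CPM in placebo libraries (2.25 ± 0.44, adjusted p = 0.00247). Cmpk2, Rsad2, Oasl2 and Irf7 stayed called with any single library left out in both versions. Isg15, Ifit2, Zbp1, Xaf1 and Rtp4 stayed called with any single library left out when all 6 were used, and lost the call without placebo 3 once placebo 5 was also out, at adjusted p = 0.0625, 0.0642, 0.0572, 0.0593 and 0.0644 in that order. Mx1, an antiviral GTPase gene, did not pass the test, with 20.8, 16.8 and 13.1 CPM in E2 libraries and 1.59, 0.711 and 3.70 CPM in placebo libraries (3.08 ± 1.06, adjusted p = 0.0974). Bst2, which encodes the antiviral membrane protein tetherin, also did not pass, at 0.43 ± 0.26 (adjusted p = 0.424). The sentences on Ifit2, Zbp1, Xaf1, Rtp4, Mx1 and Bst2 name list members chosen after their values were seen. Leukocyte markers, which could bring interferon-gene RNA, are given above: their E2 and placebo sums overlapped, and placebo 5 had the highest sum. Their part in the result was not tested.

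**Figure D2:**
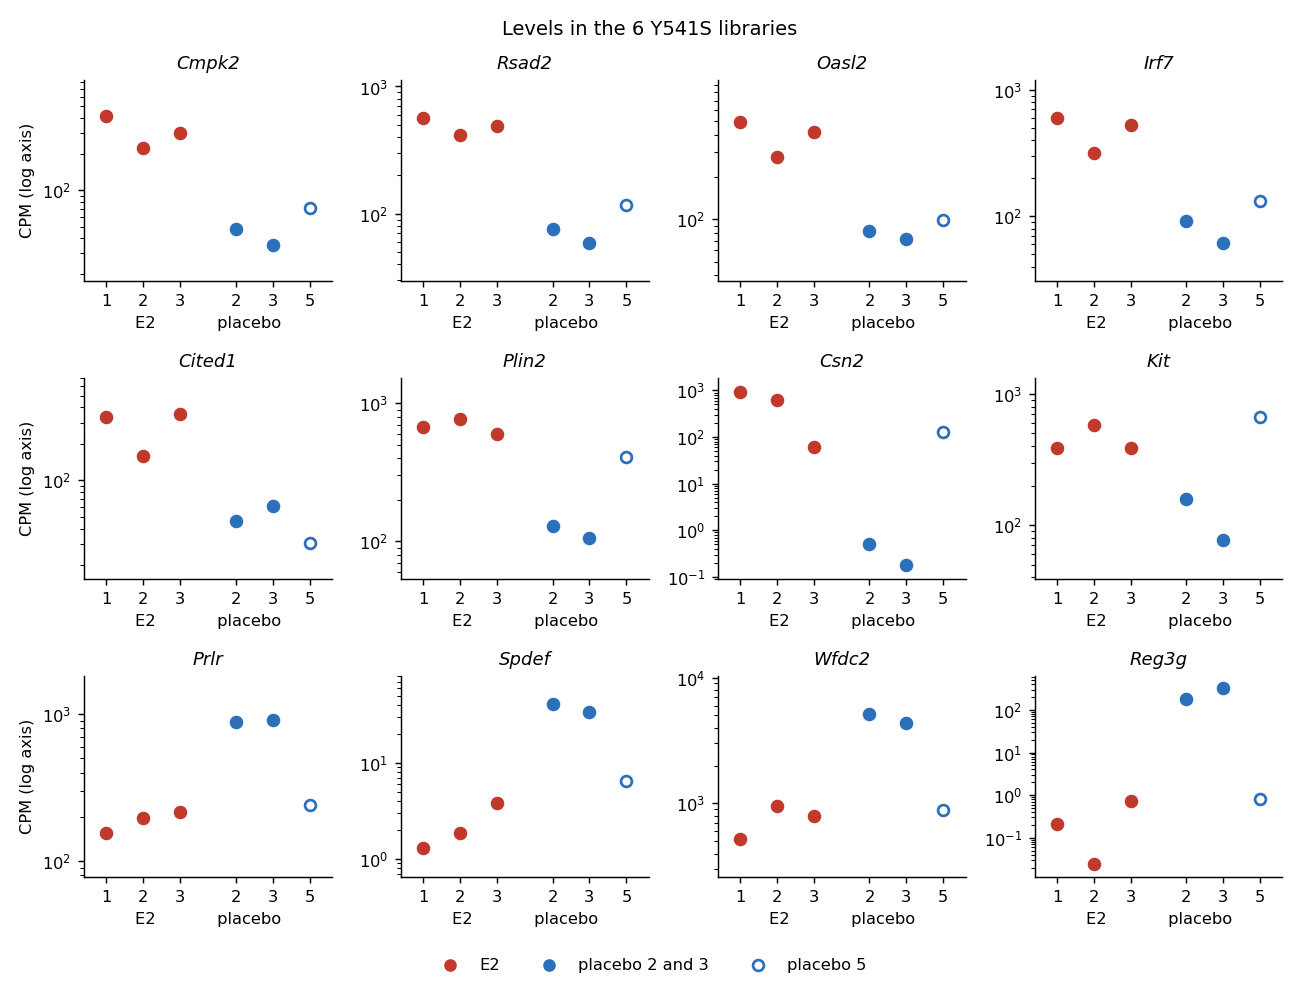
CPM on a log axis in each of the 6 Y541S libraries for 12 named genes, E2 libraries 1 to 3 on the left in red and placebo libraries 2, 3 and 5 on the right in blue, with placebo 5 as an open circle. For the 4 interferon genes of the top row and for Cited1, placebo 5 sits with placebo 2 and 3, whereas for Csn2, Kit, Wfdc2 and Reg3g it sits within, near or above the range of the E2 libraries.

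Promoters of 3 of the interferon genes are shown because they carry the repeat to which interferon-regulated factors are known to bind. The sequences are those of RefSeq (GRCm38.p6), from 250 bases before to 50 after the transcription start, and capitals mark matches, on either strand, to a direct repeat of GAAA with any 2 bases between. The motif and these promoters were chosen after the values were seen. Isg15 lies on the minus strand at chr4:156200769-156201068 and holds 3 overlapping matches, the first starting 78 bases before the start site. Ifit3 lies on the plus strand at chr19:34583279-34583578 and holds 2. Rsad2 lies on the minus strand at chr12:26456403-26456702 and holds 1.
Isg15: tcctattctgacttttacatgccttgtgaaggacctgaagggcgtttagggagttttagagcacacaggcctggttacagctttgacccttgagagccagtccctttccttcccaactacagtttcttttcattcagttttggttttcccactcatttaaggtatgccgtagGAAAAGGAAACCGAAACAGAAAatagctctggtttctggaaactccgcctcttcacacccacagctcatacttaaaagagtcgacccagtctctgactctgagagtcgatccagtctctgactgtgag
Ifit3: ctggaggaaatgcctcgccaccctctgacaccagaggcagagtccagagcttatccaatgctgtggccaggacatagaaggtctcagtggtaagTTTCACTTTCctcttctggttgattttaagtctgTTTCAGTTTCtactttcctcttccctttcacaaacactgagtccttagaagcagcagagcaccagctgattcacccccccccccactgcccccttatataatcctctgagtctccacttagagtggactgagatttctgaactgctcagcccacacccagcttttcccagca
Rsad2: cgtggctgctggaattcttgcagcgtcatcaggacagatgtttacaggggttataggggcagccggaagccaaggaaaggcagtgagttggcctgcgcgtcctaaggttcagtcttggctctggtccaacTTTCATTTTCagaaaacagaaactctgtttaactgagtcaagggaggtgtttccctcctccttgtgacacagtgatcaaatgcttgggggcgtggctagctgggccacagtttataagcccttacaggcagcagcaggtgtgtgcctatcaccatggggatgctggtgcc
The motif was in 55% (11 of 20) of the interferon-list promoters found in the table. It was in 11.7% (30 of 256) of promoters of genes higher in E2 libraries and in 3.78% (14 of 370) of those lower. Among all 27025 genes with a promoter it was in 3.99%, and among the 12672 tested ones in 3.78% (479). Without placebo 5 it was in 6.85% (40 of 584) of the higher and 3.06% (23 of 751) of the lower promoters. Outside the interferon list, 9.58% (23 of 240) of the genes that rose carried it. The palindromic estrogen response element, GGTCA and TGACC with any 3 bases between, was in 0 of 256 higher and 0 of 370 lower promoters. It was in 0.074% (20) of all promoters and in 4 of the 12672 of tested genes. Without placebo 5 it was in 1 of 584 higher and 0 of 751 lower promoters. A motif this rare is expected to be all but absent from sets of this size, so these counts cannot tell the sets apart. A match is a description of the letters in this window and not of binding.

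Cited1, whose product is a transcriptional coactivator of the estrogen receptor, was the hormone-sensing gene that rose most plainly. It lies on the X chromosome (chrX:102247381-102252181, GRCm38). It had 331, 158 and 352 CPM in E2 libraries (280 ± 106, SD, n = 3) and 45.9, 61.1 and 30.6 CPM in placebo libraries (45.9 ± 15.3, n = 3), so the groups did not overlap and placebo 5 was the lowest library. The log2 fold change was 2.61 ± 0.49 (edgeR adjusted p = 0.00198), and it stayed called without any single library. Leaving out placebo 5 gave 2.39 ± 0.57 (adjusted p = 0.00613), and leaving out placebo 2 as well gave 2.2 (adjusted p = 0.115) and placebo 3 gave 2.62 (adjusted p = 0.0625).

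Most other genes of hormone-sensing luminal identity did not pass the test. Of 23 tested, 2 rose and 5 fell with all libraries (median log2 fold change -0.60), and 3 rose and 8 fell without placebo 5 (median -0.52). Leaving out any other single library gave 1 rise and 2 to 5 falls, the fewest falls being 2 without placebo 2, 3 without placebo 3 and 3 without E2 1. Without placebo 5, the rises were 1 when placebo 2 or 3 was also left out, and the falls were 5 when placebo 3 or E2 2 was. Prlr, the prolactin receptor gene on chromosome 15 (chr15:10177238-10349180), had 155, 196 and 216 CPM in E2 libraries against 889, 914 and 240 CPM in placebo libraries. The log2 fold change of Prlr was -1.85 ± 0.34 (adjusted p = 0.00164), and -2.25 ± 0.28 without placebo 5 (adjusted p = 4.51e-06). Spdef, an epithelial ETS transcription factor gene, had 1.28, 1.87 and 3.81 CPM in E2 libraries against 40.7, 33.7 and 6.44 CPM in placebo libraries. Spdef changed by -3.54 ± 0.45 on the log2 scale (adjusted p = 5.81e-05), and both genes stayed called without any single library in both versions. In each, placebo 5 was the lowest placebo library but above all 3 E2 libraries. Runx1, a luminal transcription factor gene, had 127, 154 and 126 CPM against 337, 281 and 166 CPM (-0.94 ± 0.21, adjusted p = 0.00705), a call lost without placebo 2 (-0.72, adjusted p = 0.0837) and without E2 1 (-0.90, adjusted p = 0.0531). Tfap2b, another luminal transcription factor gene, had 19.4, 16.8 and 19.7 CPM against 67.4, 62.8 and 14.2 CPM, placebo 5 being below every E2 library (-1.37 ± 0.29, adjusted p = 0.00506). It was lost without placebo 2 (-1.05, adjusted p = 0.0622) and placebo 3 (-1.13, adjusted p = 0.0524), while without placebo 5 it fell by 1.80 on the log2 scale (adjusted p = 1.73e-08).

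Esr1 itself, Pgr and Greb1 did not pass the test in either version. Esr1 had 73.1, 62.1 and 65.0 CPM in E2 libraries and 105, 86.6 and 55.1 CPM in placebo libraries (log2 fold change -0.30 ± 0.33, adjusted p = 0.707). Pgr, the progesterone receptor gene, had 155, 193 and 204 CPM against 332, 288 and 116 CPM (-0.42 ± 0.36, adjusted p = 0.613). Greb1, an estrogen-induced cofactor gene, had 30.2, 20.4 and 21.7 CPM against 25, 17.5 and 44.9 CPM (-0.27 ± 0.49, adjusted p = 0.835). The groups overlapped in all 3 genes, for Esr1 and Pgr only through placebo 5. Without placebo 5 the log2 fold changes were -0.52 for Esr1, -0.75 for Pgr and 0.19 for Greb1. Foxa1, a pioneer factor gene, also missed the threshold, although its E2 values of 158, 85.2 and 72.7 CPM all lay below its placebo values of 204, 205 and 187 CPM (-0.92 ± 0.43, adjusted p = 0.257). Among paracrine factors, 0 of 19 passed in edgeR with all libraries and 1 fell without placebo 5; with all libraries, 5 were lower at an unadjusted p under 0.05, and DESeq2 called 1 lower. Areg, the EGF-family ligand of ductal growth, had 84.1, 71.8 and 188 CPM against 133, 138 and 210 CPM, and Wnt4, a mediator of progesterone action, had 42.9, 24.3 and 16.0 CPM against 65.6, 120 and 45.7 CPM (-1.47 ± 0.56, adjusted p = 0.138). Penk, the proenkephalin gene, had 1033, 2539 and 1070 CPM against 467, 919 and 1222 CPM (0.83 ± 0.86, adjusted p = 0.684). Slpi, a secreted protease inhibitor gene, had 664, 1304 and 1807 CPM against 338, 346 and 792 CPM (1.35 ± 0.72, adjusted p = 0.345). Of 29 genes known as estrogen receptor targets, 0 rose and 2 fell with all libraries (median -0.27), and 3 rose and 5 fell without placebo 5 (median -0.01). Ptges, the prostaglandin E synthase gene, was a fall in both versions, with 92.5, 96.1 and 80.9 CPM against 259, 188 and 138 CPM (-1.12 ± 0.22, adjusted p = 0.00356). Nrip1, a nuclear receptor corepressor gene, had 368, 535 and 329 CPM against 1053, 896 and 576 CPM (-1.04 ± 0.31, adjusted p = 0.0489). That call was lost without placebo 2 (adjusted p = 0.226), placebo 3 (0.157), E2 1 (0.196) or E2 3 (0.221).

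Among milk protein and lipid secretion genes some rose and more were called when placebo 5 was left out. Of 17 tested, 3 rose and 0 fell with all libraries (median log2 fold change 1.11), and 7 rose and 0 fell without placebo 5 (median 2.08). With all libraries the rises were 1 without E2 1, placebo 2 or placebo 3 and 2 without E2 3. Without placebo 5 they were 4 when placebo 2 was also left out and 2 when placebo 3 was. Plin2, which coats milk-lipid droplets, had 670, 766 and 598 CPM in E2 libraries against 128, 106 and 405 CPM in placebo libraries. Plin2 rose by 1.67 ± 0.32 on the log2 scale (adjusted p = 0.00214), and by 2.53 ± 0.26 without placebo 5 (adjusted p = 1.94e-07), called without any single library in both versions. Lalba, the alpha-lactalbumin gene, had 75.7, 21.8 and 13.0 CPM against 1.22, 0.838 and 5.79 CPM (3.82 ± 0.90, adjusted p = 0.0114). The Lalba call was lost without placebo 2 (adjusted p = 0.0837), placebo 3 (0.0883) or E2 1 (0.116). Csn2, the beta-casein gene of the chromosome 5 casein cluster (chr5:87692624-87699630), had 937, 632 and 61.4 CPM in E2 libraries and 0.514, 0.178 and 131 CPM in placebo libraries. Placebo 5 thus lay between the E2 libraries for Csn2, far above placebo 2 and 3. The log2 fold change was 3.64 ± 1.73 with all libraries (adjusted p = 0.273) and 10.60 ± 2.49 without placebo 5 (adjusted p = 0.00548), and without placebo 5 the call was lost when placebo 2 (0.0842) or placebo 3 (0.113) was also left out. Csn1s2a, another casein gene, had 571, 128 and 42.9 CPM against 0.416, 0.178 and 19.8 CPM (5.20 ± 1.53, adjusted p = 0.0465). It kept the call with 1 library fewer only without placebo 5 (9.68, adjusted p = 0.00167), and otherwise ranged in adjusted p from 0.0585 without E2 3 to 0.268 without E2 1. Xdh, an enzyme gene of milk-fat secretion, had 234, 303 and 160 CPM against 60.9, 53.2 and 209 CPM, and rose only without placebo 5 (2.03 ± 0.32, adjusted p = 9.86e-05).

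Luminal progenitor and alveolar markers gave a like split between versions, with 2 of 20 higher and 0 lower (median 0.49) with all libraries and 7 higher and 1 lower (median 1.31) without placebo 5. This list is not separate from the others. Its 2 rises with all libraries were Lalba and Lcn2, which also count among the milk genes and the innate defence proteins. Of those called without placebo 5, Wfdc18 is also an innate defence gene here and Cd14 is also in the hormone-sensing list. With all libraries the rises were 0 without E2 1, placebo 2 or placebo 3 and 1 without E2 2. When placebo 3 was left out as well as placebo 5, 1 rose and 1 fell. Kit, the progenitor receptor tyrosine kinase gene, had 384, 585 and 390 CPM in E2 libraries and 159, 77.3 and 665 CPM in placebo libraries, placebo 5 being the highest of the 6. Its log2 fold change was 0.59 ± 0.47 with all libraries (adjusted p = 0.562). It reached 1.94 ± 0.40 without placebo 5 (adjusted p = 0.00187), and 1.52 without placebo 3 as well (adjusted p = 0.1). Sox10, a transcription factor gene of progenitor cells, had 122, 114 and 139 CPM against 24.0, 11.5 and 146 CPM, and rose only without placebo 5 (2.82 ± 0.53, adjusted p = 0.000749). Elf5, the alveolar master regulator gene, passed in neither version, with 33.0, 47.6 and 37.0 CPM against 16.6, 32.3 and 68.5 CPM. Myc had 210, 281 and 252 CPM against 144, 93.4 and 371 CPM and rose only without placebo 5 (1.06 ± 0.24, adjusted p = 0.00386), a call lost when placebo 3 was also left out (0.79, adjusted p = 0.166). Fkbp5, a chaperone gene induced by steroid receptors, had 59.5, 59.0 and 49.0 CPM against 13.6, 11.2 and 68.4 CPM (2.17 ± 0.42 without placebo 5, adjusted p = 0.000893).

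The largest falls named by rule were in genes whose high values came from placebo 2, placebo 3 or both. Reg3g, an antibacterial lectin gene on chromosome 6 (chr6:78466269-78468872), had 0.210, 0.0237 and 0.736 CPM in E2 libraries against 181, 318 and 0.827 CPM in placebo libraries. The groups did not overlap, but placebo 5 was at the E2 level (log2 fold change -8.98 ± 1.52, adjusted p = 0.000787). Reg3b, its neighbour (chr6:78370657-78373466), had 1 count over the 3 E2 libraries and 97.6, 173 and 0 CPM in placebo libraries, so its fitted log2 fold change of -13.08 rests on that count. 3830417A13Rik, an X-chromosome gene of no stated function, had 3.19, 12.4 and 4.42 CPM against 294, 153 and 58.8 CPM (-4.66 ± 0.56, adjusted p = 3.59e-05). Nrxn3, a synaptic adhesion gene, had 3.99, 19.6 and 7.99 CPM against 229, 284 and 60.5 CPM (-4.18 ± 0.59, adjusted p = 0.000172). In these 2 genes placebo 5 lay between the groups. Syn2, a synaptic vesicle gene, had 16.9, 9.35 and 32.6 CPM against 676, 388 and 33.8 CPM (-4.22 ± 0.75, adjusted p = 0.00111). Gm12873 and Nxnl2 fell as well, by 6.31 and 6.23 on the log2 scale, and Cntfr, a cytokine receptor subunit gene, by 5.28. Ctsj, a cathepsin gene, had at most 0.071 CPM in E2 libraries and 13.6, 52.9 and 0 CPM in placebo libraries (-8.67 ± 1.52, adjusted p = 0.00104). These 9 genes stayed called without any single library in both versions, and in all but Nrxn3 and 3830417A13Rik placebo 5 was within or near the E2 range. Msx1, a homeobox gene, and Mest, an imprinted gene, rested on placebo 3, which had 37.4 and 37.5 CPM of them. Without that library their log2 fold changes were -2.82 (adjusted p = 0.412) and -1.11 (adjusted p = 0.601). The Msx1 call was also lost without E2 1 (0.200), E2 2 (0.0659) or E2 3 (0.196), and the Mest call without E2 1 (0.0599) or E2 3 (0.073). Olfm4, a secreted glycoprotein gene that shares 57.0% of its length with other genes, had 158 CPM in placebo 3 and was not called without it (-2.94, adjusted p = 0.175). Muc5b, a gel-forming mucin gene, fell by 6.91 on the log2 scale (adjusted p = 0.00702) with 52.2 CPM in placebo 3, and was not called without it (-4.57, adjusted p = 0.084), without E2 1 (-6.67, adjusted p = 0.0585) or without E2 3 (-6.86, adjusted p = 0.05). Gm33172 fell by 4.24 (adjusted p = 0.00952), a call lost without placebo 2 (0.0532), E2 1 (0.0611) or E2 3 (0.0692). Tgm2, the tissue transglutaminase gene, had 141, 155 and 245 CPM against 3025, 2215 and 179 CPM (-3.32 ± 0.53, adjusted p = 0.000583), placebo 5 lying among the E2 libraries. Of Tgm2, 52.9% is overlapped by other genes, so its count may miss or hold reads of those. 1810010D01Rik fell by 6.31 on the log2 scale but lies wholly within other genes.

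Among the largest rises, Apol9b, an apolipoprotein L gene, held best, with 35, 9.77 and 22.8 CPM in E2 libraries against 3.09, 2.21 and 2.88 CPM in placebo libraries (3.05 ± 0.51, adjusted p = 0.000787). It stayed called without any single library, and lost the call without placebo 3 and 5 together (2.87, adjusted p = 0.0514). AA467197 had 78.9, 19.4 and 73.6 CPM against 4.48, 5.94 and 4.35 CPM (3.54 ± 0.79, adjusted p = 0.00806), lost without placebo 2 (3.48, adjusted p = 0.0514). In the version without placebo 5 its call was lost without placebo 2 (0.191), placebo 3 (0.142) or E2 1 (0.0569). Tnfrsf11b encodes osteoprotegerin, the decoy receptor of RANKL. It had 30.7, 38.4 and 30.1 CPM against 0.490, 1.09 and 11 CPM, with a log2 fold change of 2.99 ± 0.88 (adjusted p = 0.0472) and, without placebo 5, 5.38 ± 0.98 (adjusted p = 0.000498). With 1 library fewer, the Tnfrsf11b call was lost except without placebo 5, at adjusted p = 0.0972 to 0.213. Klra4 rested on E2 3, with 0.588, 0.804 and 29.3 CPM against 0, 0 and 0.108 CPM, and was not called without that library (4.32, adjusted p = 0.398), placebo 2 (0.164), placebo 3 (0.170) or E2 1 (0.054). Its placebo libraries held 3 counts in all. Gm48874 (3.29 ± 0.94, adjusted p = 0.0464) was not called with any single library left out, at adjusted p = 0.0528 to 0.191. Ctnna2, an adhesion gene of neurons, rose by 3.30 on the log2 scale (adjusted p = 0.0188) and was lost without placebo 2 (0.114) or E2 1 (0.151). Gm12250 rose by 3.00 (adjusted p = 0.0135) and was lost without placebo 2 (0.0567), placebo 3 (0.0982), E2 1 (0.0659) or E2 3 (0.0504). Map6, a microtubule-stabilising protein gene, rose by 2.94 (adjusted p = 0.0352) and was lost without any library but placebo 5, at adjusted p = 0.0516 to 0.174.

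The largest rises called only without placebo 5 were in genes at which placebo 5 stood with the E2 libraries. Picking genes that are called only without it favours such genes, so this is no separate result. Msln, the mesothelin gene, had 9.97, 12.1 and 5.72 CPM in E2 libraries, and 0, 0 and 9.71 CPM in placebo libraries 2, 3 and 5, with 0 counts in placebo 2 and 3. Col9a1, a collagen gene, had 124, 101 and 60.4 CPM against 2.84, 0.863 and 51.7 CPM (5.68 ± 1.19 without placebo 5, adjusted p = 0.00203), lost without placebo 3 as well (0.0748). Atp6v1c2, a proton pump subunit gene, had 23.2, 46 and 18.7 CPM against 0.735, 0.533 and 43.1 CPM (5.52 ± 1.23 without placebo 5, adjusted p = 0.00335), lost without placebo 2 (0.0622) or 3 (0.0848) as well. Csn1s1, a casein gene, had 178, 245 and 29.3 CPM against 0.098, 0.127 and 86.2 CPM (10.35 ± 2.62 without placebo 5, adjusted p = 0.00992), lost without placebo 2 (0.138) or 3 (0.139) as well. Wap, the whey acidic protein gene, rested on E2 1, with 33.1, 0.497 and 0.347 CPM against 0, 0.0254 and 0.575 CPM, and was not called without E2 1 and placebo 5 (adjusted p = 0.345). It was also not called without placebo 5 and placebo 2 (0.290) or 3 (0.221), and its placebo libraries 2 and 3 held 1 count.

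Among secreted innate defence proteins, 3 of 20 were higher and 1 lower with all libraries (median 1.28), and 4 were higher and 2 lower (median 1.96) without placebo 5. With all libraries the rises were 0 without placebo 3 and 1 without placebo 2 or E2 1. Without placebo 5 there was 1 rise when placebo 3 was also left out, and the falls were 1 with any further library left out. Wfdc2, a whey acidic protein-type protease inhibitor gene, had 518, 961 and 801 CPM in E2 libraries against 5181, 4379 and 889 CPM in placebo libraries (-2.20 ± 0.38, adjusted p = 0.000913). Placebo 5 lay within the E2 range for Wfdc2, and the call held without any single library in both versions. Lbp, the lipopolysaccharide-binding protein gene, had 95.9, 104 and 98.4 CPM against 13.7, 9.12 and 39.2 CPM (2.27 ± 0.50, adjusted p = 0.00763), lost without placebo 2 (adjusted p = 0.0622) or placebo 3 (0.0689). Lcn2, the siderophore-binding lipocalin gene, had 1008, 1737 and 990 CPM against 273, 114 and 664 CPM (1.83 ± 0.48, adjusted p = 0.0235). The Lcn2 call was lost without placebo 2 (0.123), placebo 3 (0.149), E2 1 (0.0501) or E2 2 (0.113). Wfdc18 had 3257, 4568 and 3958 CPM against 569, 286 and 2326 CPM and rose only without placebo 5 (3.20 ± 0.64, adjusted p = 0.00133), a call lost without placebo 3 as well (2.79, adjusted p = 0.0639).

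Of 28 proteases and inhibitors, 0 rose and 3 fell with all libraries, and 1 rose and 4 fell without placebo 5. The rise was lost when placebo 2 or 3 was left out with placebo 5. Tmprss2, a membrane serine protease gene, had 122, 182 and 152 CPM against 734, 984 and 211 CPM (-2.08 ± 0.35, adjusted p = 0.000787). Adam10, the sheddase that cleaves Notch and EGF-family ligands, had 375, 476 and 465 CPM against 1182, 1132 and 651 CPM (-1.17 ± 0.22, adjusted p = 0.00183). Both stayed called without any single library in both versions, with all E2 libraries below all placebo libraries. The third, Tmprss4 (-2.76 ± 0.49, adjusted p = 0.00131), shares 77.3% of its length with other genes. Wnt11, a non-canonical Wnt ligand gene, also fell throughout, with 12.0, 13.1 and 9.33 CPM against 50.6, 53.6 and 32.3 CPM (-1.99 ± 0.37, adjusted p = 0.00194). It was 1 of 2 of the 25 Wnt pathway genes called with all libraries, and without placebo 5 there were 2 rises and 2 falls. The other, the receptor gene Fzd2, rose (1.60 ± 0.46, adjusted p = 0.039) but was lost without placebo 2 (0.125), placebo 3 (0.159), E2 1 (0.182) or E2 3 (0.0951). Notch3 had 37.6, 33.0 and 42.3 CPM against 76.7, 77.0 and 115 CPM (-1.25 ± 0.23, adjusted p = 0.00182), the 1 call among 17 Notch pathway genes. In the version without placebo 5 the Notch3 call was lost without placebo 2 (0.0526) or placebo 3 (0.0571). Tgfb3, a TGF-beta ligand gene, had 785, 791 and 824 CPM against 380, 243 and 410 CPM (1.22 ± 0.27, adjusted p = 0.00719), lost only without placebo 3 (1.02, adjusted p = 0.0723), and likewise in the version without placebo 5 (1.08, adjusted p = 0.143). Socs3, a feedback inhibitor of cytokine signalling, had 120, 145 and 124 CPM against 353, 337 and 317 CPM (-1.37 ± 0.30, adjusted p = 0.00737), lost only without E2 1 (-1.32, adjusted p = 0.0531) and, in the version without placebo 5, only without placebo 2 (adjusted p = 0.0528). In Notch3, Tgfb3 and Socs3 placebo 5 lay with placebo 2 and 3.

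Of 34 steroid and nuclear receptor genes, 0 rose and 5 fell with all libraries (median -0.40), and 1 rose and 5 fell without placebo 5. The falls with all libraries were 2 without E2 1, E2 3 or placebo 2 and 3 without placebo 3, and without placebo 5 they were 3 when placebo 3 was also left out. Nr1h2, the liver X receptor beta gene, had 120, 105 and 120 CPM against 205, 180 and 136 CPM (-0.59 ± 0.12, adjusted p = 0.00499), lost without placebo 2 (-0.45, adjusted p = 0.0683). Nr1d1, the clock repressor REV-ERB alpha, had 37.3, 64.1 and 36.1 CPM against 176, 224 and 61.9 CPM, with placebo 5 inside the E2 range. Its log2 fold change was -1.75 ± 0.41 (adjusted p = 0.0118), and the call was lost without placebo 2 (0.053), placebo 3 (0.11), E2 1 (0.0844) or E2 3 (0.0824) but held throughout without placebo 5 (-2.12 ± 0.40, adjusted p = 0.000645). Of 27 ion channel genes, 1 rose and 4 fell with all libraries, and 4 rose and 5 fell without placebo 5. With all libraries the falls were 0 without placebo 3 or E2 1 and 2 without E2 2 or E2 3, and the rise was lost without placebo 2, placebo 3 or E2 3. Without placebo 5, 2 rose and 1 fell when placebo 3 was also left out, and 2 rose and 6 fell when placebo 2 was. Scnn1a, the alpha subunit of the epithelial sodium channel, had 19.2, 21.8 and 27.6 CPM against 85.8, 118 and 31.6 CPM (-1.78 ± 0.42, adjusted p = 0.0113), lost without placebo 3 (0.114) or E2 1 (0.0792). Scnn1g, the gamma subunit, had 14.1, 16.6 and 29.4 CPM against 2.87, 3.35 and 8.99 CPM (1.99 ± 0.52, adjusted p = 0.0222), lost without placebo 2 (0.137), placebo 3 (0.142) or E2 3 (0.137). Scnn1b, the beta subunit, did not pass, at 0.43 ± 0.46 (adjusted p = 0.693).

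No S, G2 or M phase gene passed the test in either version. Among 31 S phase genes, 0 were called in either version, with a median log2 fold change of 0.81, and among 34 G2 and M phase genes 0 were called, with a median of 1.23 (edgeR). At an unadjusted p under 0.05 with all libraries, 4 S phase and 3 G2 and M phase genes were higher and 0 lower, and DESeq2 called 0 of either. The G2 and M phase genes summed to 2947, 1692 and 2424 CPM in E2 libraries and 853, 1092 and 1175 CPM in placebo libraries, so the groups did not overlap. The S phase genes summed to 2596, 1697 and 2293 CPM against 1387, 1324 and 1199 CPM, also without overlap. Mki67, the proliferation marker, overlapped between the groups, with 55.3, 43.4 and 29.7 CPM against 15, 23.8 and 47.1 CPM (0.58 ± 1.08, adjusted p = 0.843). Ccnd1, the cyclin D1 gene, had 193, 235 and 287 CPM against 395, 264 and 171 CPM (-0.21 ± 0.29, adjusted p = 0.776).

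Of 25 apoptosis and p53-response genes, 0 rose and 4 fell with all libraries, and 1 rose and 6 fell without placebo 5. Trp53inp1, a stress-induced p53 partner gene, had 70.9, 51.5 and 72.1 CPM against 321, 391 and 120 CPM (-2.09 ± 0.44, adjusted p = 0.00532) and held without any single library in both versions. The falls of the other 3 depended on single libraries, and with all libraries but 1 the list had 1 fall without E2 2, E2 3, placebo 2 or placebo 3 and 2 without E2 1. Without placebo 5 it had 3 falls when placebo 3 was also left out. Bax, the pore-forming death effector, had 66.2, 62.7 and 68.8 CPM against 133, 145 and 55.3 CPM, placebo 5 being below every E2 library. Its log2 fold change was -0.75 ± 0.20 (adjusted p = 0.0269) with all libraries, and the call was lost without any library other than placebo 5 (adjusted p = 0.0799 to 0.246). Without placebo 5 it was -1.07 ± 0.14 (adjusted p = 6.39e-06).

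Metabolic and protein-folding lists had few calls, and most depended on single libraries. Of 29 nuclear-encoded oxidative phosphorylation genes 3 rose and 0 fell with all libraries, and 2 rose and 0 fell without placebo 5. Those rises were 0 without E2 1 or E2 3 and 1 without placebo 2, and without placebo 5 they were 0 when placebo 2 was also left out and 1 when placebo 3, E2 1 or E2 3 was. At an unadjusted p under 0.05 with all libraries, 10 oxidative phosphorylation genes were higher and 0 lower, and DESeq2 called 5 higher and 0 lower. Without placebo 5, 5 were higher and 2 lower at that p, and DESeq2 called 2 higher and 0 lower. Of 29 unfolded protein response genes 3 rose and 0 fell with all libraries, and 4 rose and 0 fell without placebo 5. Those rises were 0 without E2 1, E2 3, placebo 2 or placebo 3 and 1 without E2 2, and without placebo 5 there was 1 when placebo 3 was also left out. Of 24 glycolysis and hypoxia genes 0 rose and 1 fell with all libraries, and 2 rose and 5 fell without placebo 5. The single fall was lost without placebo 2, where 1 rose, or without E2 1, and was 2 without E2 2. Without placebo 5 there was 1 fall when placebo 2 was also left out, 3 falls when E2 1 or E2 3 was, and 1 rise when placebo 3 was. Of 32 cholesterol and fatty acid synthesis genes 0 rose and 1 fell with all libraries, the fall being lost without placebo 2, placebo 3 or E2 3. Without placebo 5, 5 rose and 1 fell, and the rises were 0 when placebo 3 was also left out, 3 when placebo 2 was and 2 when E2 2 was. Scd1 had 326, 478 and 229 CPM in E2 libraries against 90.4, 87.2 and 354 CPM in placebo libraries (1.96 ± 0.41 without placebo 5, adjusted p = 0.00205), lost without placebo 3 as well (adjusted p = 0.0505). Hspa5, the endoplasmic reticulum chaperone BiP, had 2452, 2586 and 2593 CPM against 1663, 1378 and 2570 CPM (0.74 ± 0.17 without placebo 5, adjusted p = 0.00377), lost without placebo 3 as well (0.123). Placebo 5 was at the E2 level for both. No gene was called among 12 mitochondrially encoded genes, 20 chemokines and cytokines, 15 EGF-family ligands and receptors or 16 genes of steroid metabolism with all libraries in edgeR. At an unadjusted p under 0.05 these lists had 0, 3, 4 and 4 genes in that order, and DESeq2 called 0, 0, 1 and 1. When placebo 5 was left out, the chemokines and cytokines had 2 rises, the EGF family 1 rise and 2 falls, and steroid metabolism 1 rise and 1 fall. With placebo 3 left out as well, all of these were 0. Tap1, a peptide transporter gene of antigen presentation, was the 1 called of 14 MHC pathway genes with all libraries (2 rose and 3 fell without placebo 5, and 0 and 2 without placebo 3 as well), with 438, 278 and 410 CPM against 236, 218 and 147 CPM (0.91 ± 0.18, adjusted p = 0.00306). Its call held without any single library, and in the version without placebo 5 was lost without placebo 2 (0.0713), placebo 3 (0.149) or E2 1 (0.0682).

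**Figure D3:**
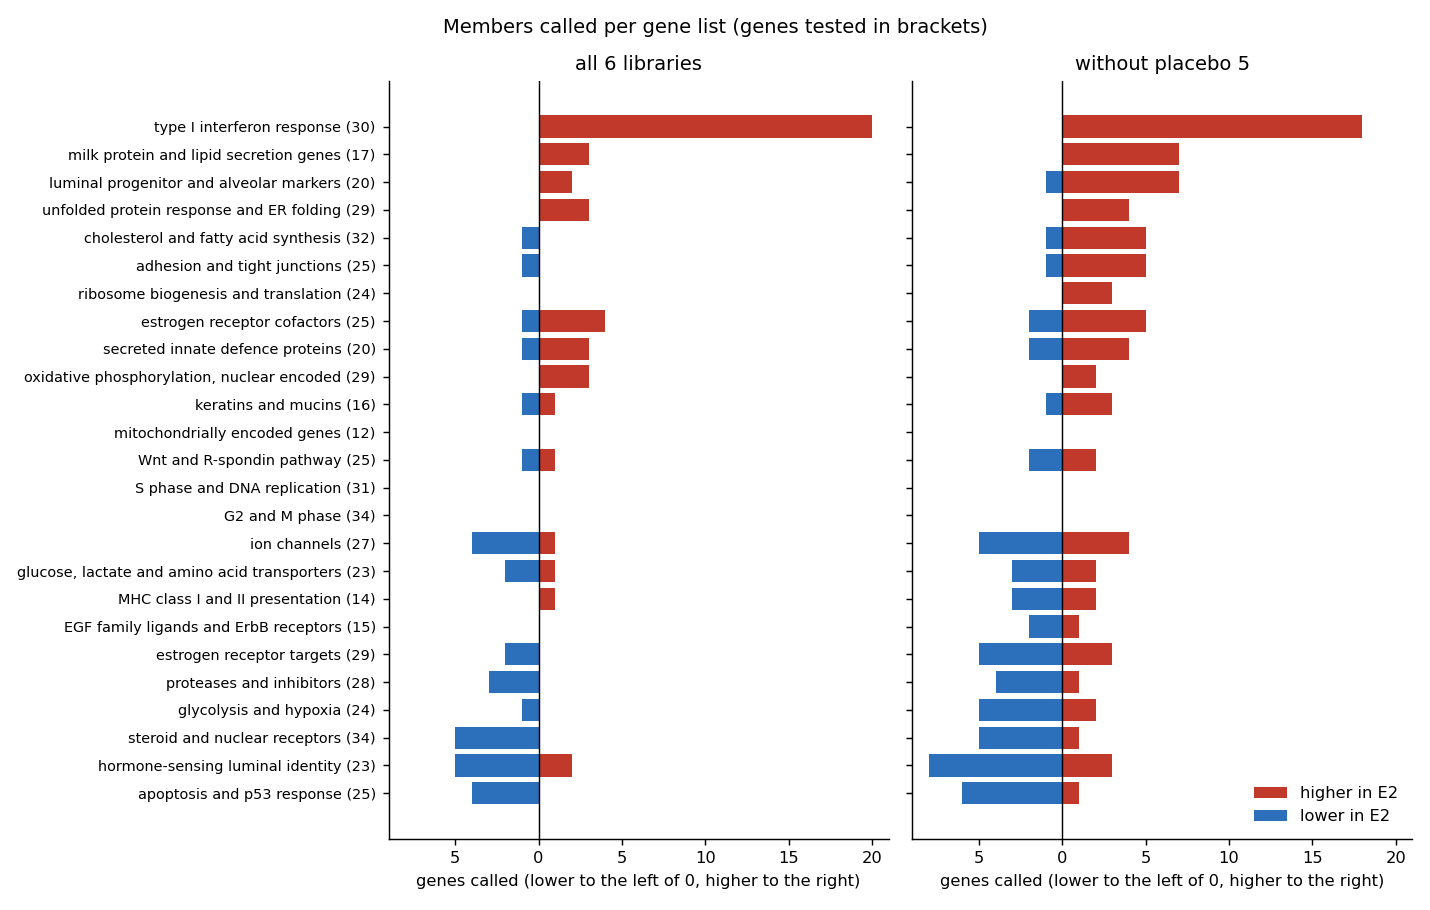
Number of genes called higher (red, right of 0) and lower (blue, left of 0) in E2 than in placebo libraries of Y541S cells for each gene list, with all 6 libraries on the left and without placebo 5 on the right; the number tested with all libraries is in brackets. The interferon list has 20 and 18 rises, and no other list has more than 4 rises on the left.

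The place of placebo 5 was measured on the genes called without it, on a scale of log2 CPM where 1 is the mean of the E2 libraries and 0 the mean of placebo 2 and 3. It lay past the midpoint towards E2 for 70.7% of the 765 genes that rose (median place 0.77) and for 84.1% of the 1017 that fell (median place 0.93). For the 18 interferon genes the median place was 0.28, and 1 was past the midpoint. All 7 milk genes were past it (median 0.71), as were 8 of 8 progenitor and alveolar markers (0.80), 8 of 8 estrogen receptor targets (1.03) and 7 of 7 apoptosis genes (0.99). Of 11 hormone-sensing genes, 10 were past it (0.92), Cited1 being the exception. Placebo 5 had the lowest depth and the later identifier, and it is the 1 Y541S library with that identifier, so depth and identifier cannot be told apart.

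**Figure D4:**
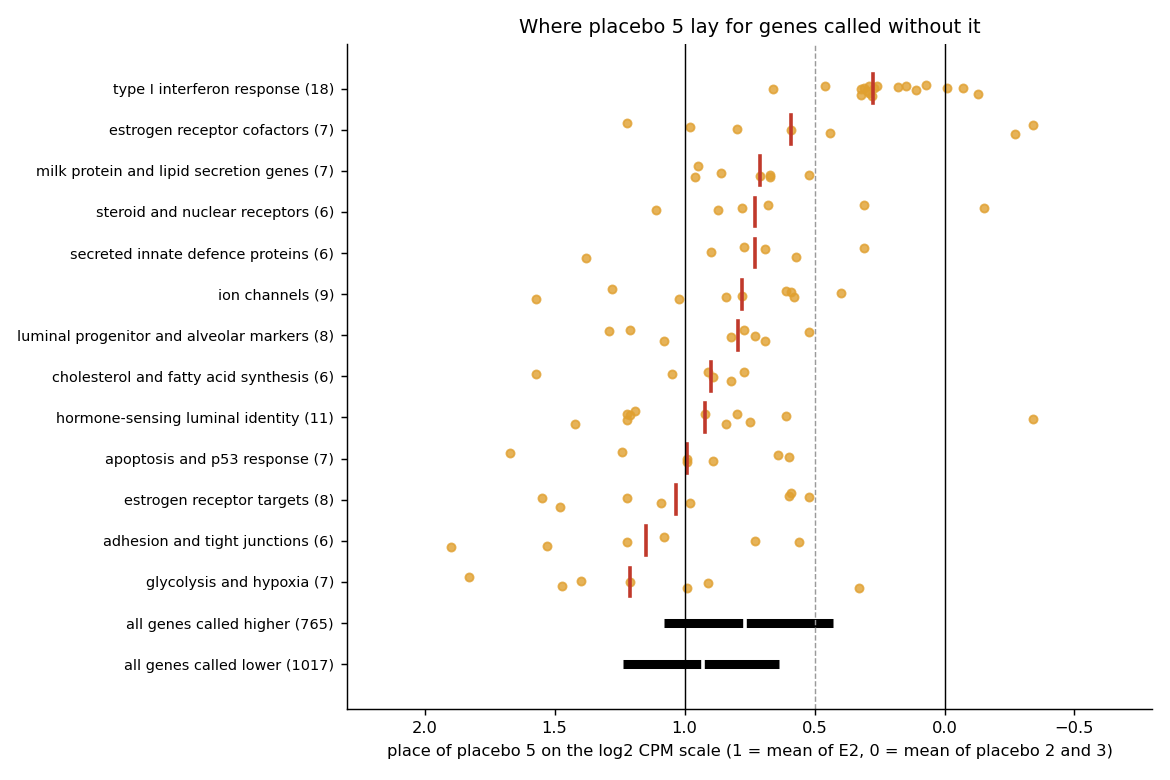
Place of placebo 5 between the mean of the E2 libraries (1, left) and the mean of placebo 2 and 3 (0, right) for genes called without it, where each point is a gene, the red bar is the list's median, and the black bars give the middle 50% and the median of all genes called. The interferon genes have a median of 0.28, while the other lists shown have medians past the midpoint, from 0.59 to 1.21.

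The Y541S response was smaller in its number of calls than the D542G and WT responses. E2 raised 8.36% and lowered 7.34% of genes in D542G cells, and raised 15.6% and lowered 15.9% in WT cells, as against 1.87% and 2.78% in Y541S cells, or 4.03% and 5.34% without placebo 5. Of the 344 genes higher in Y541S E2 libraries, 221 were also called higher in WT (64.2% of the Y541S calls and 7.69% of the WT calls) and 11 were called lower. Of the 513 lower, 349 were also called lower in WT (68.0% and 11.94%) and 15 were called higher. In D542G cells, 147 of the 344 were called higher (42.7% and 9.54%) and 203 of the 513 lower (39.6% and 15.01%). Without placebo 5, 547 of 765 rises (71.5% and 19.04% of the WT calls) and 706 of 1017 falls (69.4% and 24.15%) were called the same way in WT. In D542G these were 244 rises (31.9% and 15.83% of the D542G calls) and 374 falls (36.8% and 27.66%). The difference between responses, tested directly, was called for 1478 genes against WT, which is 8.02% of those tested, and for 982 or 5.15% without placebo 5. Against D542G it was called for 775 genes or 4.21%, and for 1072 or 5.62% without placebo 5. These counts also moved with single libraries: against WT the count was 909 without WT placebo 3 and 941 without Y541S E2 1. Against D542G it was 446 and 432 without D542G placebo 1 and 2, 444 and 515 without Y541S E2 1 and 3, and 485 without Y541S placebo 2. Without Y541S placebo 5, leaving out Y541S placebo 2 or 3 as well gave 404 and 539 against WT and 473 and 663 against D542G.

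Cited1 moved in opposite directions in Y541S and WT cells. It averaged 280 ± 106 CPM in Y541S E2 and 45.9 ± 15.3 CPM in Y541S placebo libraries, 145 ± 51.4 and 259 ± 98.7 CPM in D542G E2 and placebo libraries, and 35 ± 20.5 and 1254 ± 581 CPM in WT E2 and placebo libraries (SD, n = 3 each). The Y541S response exceeded the WT response by 7.77 ± 0.74 on the log2 scale (adjusted p = 2.61e-07) and the D542G response by 3.45 ± 0.68 (adjusted p = 0.00255), and both differences held without any single library. Esr1 itself averaged 66.7 ± 5.71 CPM in Y541S E2 and 82.1 ± 25.1 CPM in Y541S placebo libraries, and 24.3 ± 14.8 and 688 ± 130 CPM in WT E2 and placebo libraries, so the responses differed by 4.52 ± 0.49 (adjusted p = 1.28e-06). Greb1 averaged 24.1 ± 5.34 and 29.1 ± 14.2 CPM in Y541S, 7.06 ± 0.881 and 0.858 ± 0.385 CPM in D542G, and 8.87 ± 6.03 and 1.38 ± 0.73 CPM in WT E2 and placebo libraries. Its Y541S response was below that of WT by 2.95 ± 0.72 (adjusted p = 0.01) and below that of D542G by 3.31 ± 0.73 (adjusted p = 0.00684) on the log2 scale. Penk averaged 1547 ± 859 and 869 ± 380 CPM in Y541S, 1130 ± 357 and 3.19 ± 3.07 CPM in D542G, and 555 ± 168 and 0.614 ± 0.160 CPM in WT E2 and placebo libraries. Slpi averaged 1259 ± 573 and 492 ± 260 CPM in Y541S, and 816 ± 423 and 2.14 ± 0.615 CPM in WT E2 and placebo libraries. The mean of the Y541S placebo libraries lay above that of the WT E2 libraries for Greb1 and Penk and below it for Slpi.

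Several lists differed between genotypes in the tested difference. Of 29 estrogen receptor targets, 0 responses were higher and 6 lower in Y541S than in WT, and 0 higher and 5 lower than in D542G. Without placebo 5 these were 0 and 4 against WT and 1 and 6 against D542G. The mean level of these targets was 4.99 ± 0.13 log2 CPM in Y541S E2 and 5.01 ± 0.24 in Y541S placebo libraries. It was 4.79 ± 0.05 and 3.9 ± 0.16 in D542G, and 4.99 ± 0.21 and 4.04 ± 0.18 in WT E2 and placebo libraries (SD). Of 20 chemokines and cytokines, 0 responses were higher and 9 lower in Y541S than in WT, and 1 was higher and 9 lower than in D542G. Leaving out placebo 5 gave 7 lower responses in each case. E2 raised 13 of the 20 and lowered 2 in D542G cells, and raised 14 in WT cells. In Y541S cells it raised 0 with all libraries and 2 without placebo 5. The mean level of the list was 4.45 ± 0.38 log2 CPM in Y541S E2 libraries, and 3.91, 4.14 and 5.23 in Y541S placebo libraries 2, 3 and 5. It was 4.45 ± 0.1 and 2.1 ± 0.28 in D542G, and 4.59 ± 0.3 and 1.99 ± 0.5 in WT E2 and placebo libraries (SD over 3 libraries each). Cxcl5, a neutrophil-attracting chemokine gene, had 310, 390 and 226 CPM in Y541S E2 libraries and 52.2, 75.1 and 524 CPM in Y541S placebo libraries. Placebo 5 was thus the highest of the 6. With all libraries the log2 fold change of Cxcl5 was 0.51 ± 0.79, against 8.67 ± 1.11 in D542G and 8.33 ± 1.15 in WT cells. For 20 progenitor and alveolar markers, 1 response was above and 11 were below that of WT, and 2 and 7 without placebo 5. Against D542G, 2 were above and 1 below, and 5 and 2 without placebo 5. For 23 hormone-sensing identity genes, 8 responses were above and 2 below that of WT, and 6 and 2 without placebo 5. Against D542G, 1 was above and 3 below, and 2 and 3 without placebo 5.

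The interferon genes were induced in every genotype, with 20 of 30 higher in Y541S, 15 higher and 1 lower in D542G, and 19 higher in WT cells. Their mean level was 6.87 ± 0.37 log2 CPM in Y541S E2 and 5.11 ± 0.31 in Y541S placebo libraries, 4.27 ± 0.16 and 3.04 ± 0.22 in D542G, and 4.68 ± 0.87 and 3.00 ± 0.16 in WT E2 and placebo libraries (SD over 3 libraries each). The Y541S response was higher than that of D542G for 3 of 30 genes and lower for 0, and higher than that of WT for 1 and lower for 4, or 2 without placebo 5. Ddx58, the RNA sensor RIG-I, was higher against both. It changed by 1.0 ± 0.21 on the log2 scale in Y541S, -0.96 ± 0.21 in D542G and -0.39 ± 0.21 in WT cells, with differences of 1.96 ± 0.30 from D542G (adjusted p = 0.000147) and 1.39 ± 0.30 from WT (adjusted p = 0.00334). In Y541S cells its call held without any single library, and without placebo 5 was lost when placebo 2 (0.0677), placebo 3 (0.145) or E2 1 (0.0516) was also left out. Ifit1 and Ifit3 rose less in Y541S than in WT cells, by 2.44 ± 0.71 (adjusted p = 0.0294) and 3.28 ± 0.89 (adjusted p = 0.0206) on the log2 scale.

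**Figure D5:**
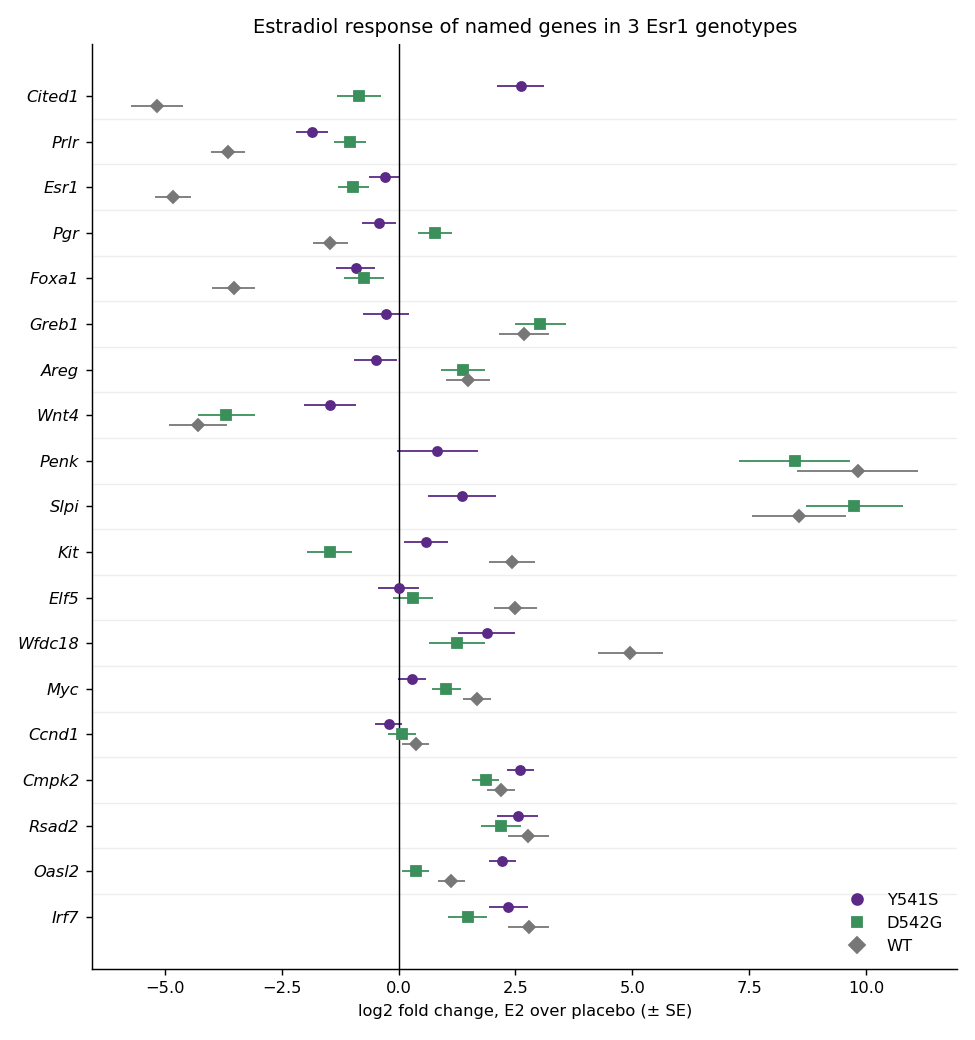
Log2 fold change, E2 over placebo (± SE), of 19 named genes in Y541S (purple circles), D542G (green squares) and WT cells (grey diamonds), with all libraries. Cited1 lies at 2.61 in Y541S and at -5.16 in WT. Penk and Slpi lie at 0.83 and 1.35 in Y541S and above 8 in the other genotypes. The 4 interferon genes at the bottom lie at 2.22 to 2.61 in Y541S.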

How the data were processed

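RNA of sorted mature luminal cells was sequenced, and the authors deposited a table of raw read counts per gene for each library; GRCm38 is the genome build per the submitters' processing notes. The aligner, the counter and whether counting used strand are not given in the sources used here. Of 1264 protein-coding genes wholly overlapped by other genes, 89.3% had 0 counts in every library, against 19.3% of those without overlap, so a 0 was not read as absence. From these counts, edgeR 4.0.16 (R 4.3.3, limma 3.58.1) fitted all 37 libraries with 1 coefficient per group, after its filter on low counts (18426 genes kept, or 19071 of 52636 without placebo 5) and TMM scaling, with the robust quasi-likelihood test and Benjamini-Hochberg adjustment over all genes at 0.05. Standard errors are the fold change over the square root of F. CPM are counts scaled to the TMM-scaled total of the tested genes. Log2 CPM used a prior count of 2. Differences between genotypes were interaction terms in the same fit. On simulated counts the fit recovered 42% of 2-fold and 72% of 4-fold changes with 3 against 3 libraries, and 41% and 72% with 3 against 2. The simulated placebo 5 was drawn with the same mean as every other placebo library. These shares therefore do not describe the real comparison, in which placebo 5 lay near the E2 libraries. Rescaling with DESeq2 1.42.0 size factors moved the median log2 fold change of all genes by -0.034. Gene coordinates are those of GENCODE on GRCm38.

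The libraries and gene lists were chosen with earlier results of these data known. Genes were named by rule: in each version, the 10 largest rises and falls among called genes with a mean of at least 4 CPM and no overlap between groups, a panel of luminal genes, and up to 4 members of each list with at least 3 calls; others were chosen after their values were seen. The numbers 2 and 3 shared by E2 and placebo libraries do not pair them: same-numbered libraries deviated from their group means with r = 0.04 and 0.10.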

Additional observations from a re-analysis of the deposited data

Results flagged for a closer look

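The Y541S response differed from the WT or D542G response in the genes given here, by the interaction term of the edgeR fit with all libraries. Each value is the Y541S log2 fold change minus that of the other genotype.

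Against WT, the response was higher for Cited1 (7.77), Fbp1 (7.52), a gluconeogenic enzyme gene, Muc16 (7.13), a membrane mucin gene, Esr1 (4.52) and Foxa1 (2.61), each called without any single library of the 4 groups. It was higher for Prlr (1.8), a call lost without WT E2 2 (adjusted p = 0.0519), and for Jag2 (8.23), a Notch ligand gene whose WT E2 libraries held 3 counts in all. The Jag2 call was lost without WT placebo 2 (0.305), WT E2 2 (0.0541) or WT E2 3 (0.0555). The response was lower for Penk (-8.99), Slpi (-7.22), Greb1 (-2.95), Muc5b (-10.87) and Sprr2g (-9.07), an epidermal envelope gene, each called without any single library. It was lower for Gm34225 (-9.5) and Aspa (-9.48), whose WT placebo libraries held 1 and 2 counts, so the fitted sizes rest on those. Reg3b (-11.64) rests on 1 count over the Y541S E2 libraries and was lost without WT E2 1 (adjusted p = 0.219).

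Against D542G, the response was higher for Cited1 (3.45), Extl1 (4.14), Sord (4.1), the sorbitol dehydrogenase gene, and Susd4 (3.85), each called without any single library. Lalba (5.02) was lost without D542G placebo 2 (adjusted p = 0.0549), Y541S placebo 2 (0.0536) or Y541S E2 1 (0.0797). Asprv1 (3.99, adjusted p = 0.0497) kept its call in 2 of 12 omissions, and without Y541S placebo 5 it was 5.90. The response was lower for Penk (-7.64), Slpi (-8.4), Greb1 (-3.31), Muc5b (-13.24) and Klk7 (-10.51), a serine protease gene, each called without any single library. Reg3b (-13) rests on 1 count in the Y541S E2 libraries. Cts6, a cathepsin gene, had 0 counts in the Y541S E2 libraries, so its fitted -10.97 gives a direction and no size. Thbs4 (-17.48) rests on 1 count in Y541S E2 and 3 in D542G placebo libraries. Its call was lost without D542G placebo 1 (0.0643), D542G placebo 2 (0.0566), D542G E2 3 (0.705), Y541S E2 1 (0.0656), Y541S E2 2 (0.0553) or Y541S E2 3 (0.0619).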

How the results depend on the processing

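The 857 genes called with all 6 libraries became 1439 with DESeq2 and 1743 without the later identifier series, while a fit of only the groups compared called 0, with 2595 genes at an unadjusted p under 0.05. With DESeq2 size factors in edgeR it was 828, with no filter 626 and with the replicate block 959; leaving out single libraries gave 299 to 1786, the highest without placebo 5. Without placebo 5 the 1786 calls were 1610 with the replicate block and ranged from 731 to 1349 with another library left out. For the difference from WT, the 1478 calls became 394 with only the groups compared and 941 without the later series, 1094 with the replicate block, and 909 to 1639 over single omissions. Without placebo 5 the 982 became 1640 with DESeq2 and 402 with only the groups compared, and 404 to 1326 over omissions. For the difference from D542G, the 775 calls became 1290 with DESeq2 and 432 to 1072 over omissions. Without placebo 5 the 1072 became 1659 with DESeq2 and 473 to 1039 over omissions. The causes were not tested. No result changed sign with its call kept. E2 and placebo libraries share only the numbers 2 and 3, which do not pair them.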
